A study of Rattus norvegicus with 7 samples.

Results

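The molecular clock genes described here are the circadian repressors and the genes of the stabilizing loop, as measured in synovium, the membrane inside the joint capsule of the knee. The 10 genes Per1, Per2, Per3, Cry1, Cry2, Bhlhe40, Bhlhe41, Ciart, Rora and Nfil3 were taken by symbol from a table of 20660 rat genes, and all 10 were found and had enough counts to be tested. In the MIA group, 4 male SD rats aged 3 months had received 0.1 mL of MIA at 10 mg per kg into the right knee joint, a model of knee osteoarthritis (KOA). The control group was 3 rats of the same sex, strain and age with no treatment. MIA is given only as an abbreviation; in joint injection models this is most often monosodium iodoacetate, which blocks glycolysis. Rats lived under a 12-hour light and dark cycle, pentobarbital was given before the knee injection, and synovium was taken 4 weeks later as 1 library per rat. No sham injection is described, so the injection itself and MIA cannot be told apart. The hour of collection is not given in the sources used here, and its part in any difference of these genes was not tested.

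The circadian clock is a transcriptional feedback loop that runs in most cells of the body, including cells of the joint. CLOCK (or NPAS2) and BMAL1, the product of Arntl, pair up and bind E-box sequences, where they switch on the Per and Cry genes. PER and CRY proteins then enter the nucleus and inhibit that pair, and DEC1 (Bhlhe40), DEC2 (Bhlhe41) and CHRONO (Ciart) are further inhibitors of it. A stabilizing loop works through ROR elements, at which ROR proteins such as RORA activate and REV-ERB proteins (Nr1d1, Nr1d2) repress Arntl. At D-boxes the PAR bZIP factors DBP, TEF and HLF activate and NFIL3 represses. Transcripts of many of these genes rise and fall over the day, Arntl and the Per genes at different hours.

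To show which clock elements lie near the annotated gene starts, windows were taken from RefSeq (build GRCr8). They ran from 250 bases before to 50 bases after the start. RefSeq matched 9 of the 10 genes, and Cry1 had no entry. Each window was searched on both strands for the E-box CACGTG, the E'-box CACGTT, the D-box (TTATGTAA or TTACGTAA), the core of the ROR element (TAGGTCA or TGGGTCA) and the cAMP response element TGACGTCA. In the lines below, each 5' to 3' on the gene's strand, capitals mark the matches. Ciart (chr2:186112197-186112496, minus strand) and Per3 (chr5:166777751-166778050, minus strand) are shown because they had the 2 smallest adjusted p of the 10 genes. Per2 (chr9:99496944-99497243, minus strand) holds a match to each of a pair of elements, and Arntl (chr1:176766078-176766377, plus strand; Bmal1 in RefSeq) is the gene on which the loops converge.
Ciart: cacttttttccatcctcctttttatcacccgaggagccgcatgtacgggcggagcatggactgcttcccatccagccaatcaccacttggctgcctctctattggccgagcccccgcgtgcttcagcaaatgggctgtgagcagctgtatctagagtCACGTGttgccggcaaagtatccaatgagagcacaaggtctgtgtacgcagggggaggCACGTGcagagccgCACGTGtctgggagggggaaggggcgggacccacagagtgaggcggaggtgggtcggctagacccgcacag
Per3: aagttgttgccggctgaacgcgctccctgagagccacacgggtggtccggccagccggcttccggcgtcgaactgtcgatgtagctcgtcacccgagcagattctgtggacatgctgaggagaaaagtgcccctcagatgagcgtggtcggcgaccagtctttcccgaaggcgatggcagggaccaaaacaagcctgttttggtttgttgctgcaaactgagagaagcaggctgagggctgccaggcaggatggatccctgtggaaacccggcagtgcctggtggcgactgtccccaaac
Per2: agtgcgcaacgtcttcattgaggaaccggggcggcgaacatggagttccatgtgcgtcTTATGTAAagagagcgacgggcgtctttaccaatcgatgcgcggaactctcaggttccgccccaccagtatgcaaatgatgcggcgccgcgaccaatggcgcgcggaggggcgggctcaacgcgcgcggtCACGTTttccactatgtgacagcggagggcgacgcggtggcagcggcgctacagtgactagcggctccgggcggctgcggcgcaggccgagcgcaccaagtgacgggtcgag
Arntl: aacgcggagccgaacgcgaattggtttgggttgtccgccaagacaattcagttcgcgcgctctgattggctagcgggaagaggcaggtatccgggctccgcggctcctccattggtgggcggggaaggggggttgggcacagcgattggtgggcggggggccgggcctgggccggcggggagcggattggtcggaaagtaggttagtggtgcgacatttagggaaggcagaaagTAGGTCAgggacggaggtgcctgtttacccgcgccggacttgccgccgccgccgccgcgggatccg

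The Ciart window held 3 E-boxes, which begin 93, 35 and 21 bases before the start site. Per2 held a D-box at 192 bases and an E'-box at 62 bases before the start. Bhlhe40 and Bhlhe41 each held 1 E-box, at 220 and 48 bases, and Cry2 an E'-box at 212 bases before the start. In the windows of Per1, Per3, Rora and Nfil3 none of the letters searched was found. Only 1 window per gene was searched, so elements elsewhere in these genes or at other starts are not covered. The annotated start of Per3 is directly followed by ATG, and that of Cry2 almost directly. These may thus be starts of coding sequence rather than of transcription, and windows further upstream were not searched. Both genes are among the 9 windows counted next. The E-box was present in 3 of the 9 windows and in 6.65% of 27457 rat promoter windows of the same length, and the D-box in 1 of the 9 and in 1.01% of all. For the E'-box the numbers were 2 of the 9 and 4.93%. The ROR core (6.51% of all windows) and the cAMP response element (1.91%) were in none of the 9, while the Arntl window had 1 ROR core, 16 bases before its start. No pair of matches in these windows shared a base. A match is a string of letters and says nothing of binding in these tissues.

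Total counts ran from 14119648 to 16261089 in MIA and from 13870822 to 15819900 in control libraries. The tissue transcripts in the libraries differed. Skeletal muscle genes (17 of 20 listed were matched) took 0.0437% to 4.82% of counts in MIA, least in MIA 2, and 13.2% to 15.5% in control libraries, and their summed level was 393 to 39244 CPM in MIA and 158907 to 192947 CPM in control. None of the 17 was at 0 in any library, 4 were called lower and 0 higher. Of the sublining fibroblast genes 5 of 6 were higher, with a summed level of 30909 to 67464 CPM in MIA and 1978 to 4738 CPM in control, and 5 of 6 macrophage genes were higher (384 to 1112 CPM in MIA and 209 to 281 CPM in control). Prg4, the lubricin gene that marks the synovial lining, was present in all libraries, at 185 to 4837 CPM in MIA and 1494 to 3651 CPM in control. The other lining genes differed in direction: Clic5 was lower (46.8 to 136 CPM in MIA and 257 to 664 CPM in control), Pdpn higher (90.0 to 174 CPM in MIA and 32.8 to 61.3 CPM in control), and Cd55 did not pass. For the changes described next, tissue make-up was entered in fits only as a covariate, the muscle or the adipocyte level. The muscle level entered, a mean log2 CPM, was 3.67 to 10.3 in MIA and 12.2 to 12.8 in control libraries. It separated the groups, so the fit with it cannot tell the part of muscle from that of MIA. The part of tissue make-up was otherwise not tested. In bulk tissue, fewer cells of a type and less RNA per cell cannot be told apart.

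Of the 10 genes, 3 were lower in MIA synovium and 0 were higher by edgeR's quasi-likelihood test, where a call needed a Benjamini-Hochberg p under 0.05 over 14054 genes. Ciart, Per3 and Cry1 fell, 7 of the 10 had a negative log2 change, and the median change was -0.82. Of all genes tested, 40.9% were called, 19.6% lower and 21.3% higher; 46.9% had a negative change, and the median was 0.07, so the count of 3 alone does not set the 10 genes apart. At an unadjusted p under 0.05, 6 were lower and 1 higher, against 24.0% and 26.6% of all genes. DESeq2 called 5 lower and 0 higher, against 22.2% and 23.6% of all genes. With limma-voom 3 were lower and 0 higher, against 19.8% and 17.7%. In CPM, here counts scaled to library sizes adjusted by TMM for differences in composition, the MIA and control libraries did not overlap for 6 of the 10 genes, 5 lower and 1 higher. Of all genes tested this held for 49.2%, 24.4% lower and 24.8% higher. In FPKM, which scales to the library total, that held for 3 of the 10 (Per3, Ciart and Rora), against 54.1% of all.

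**Figure D1:**
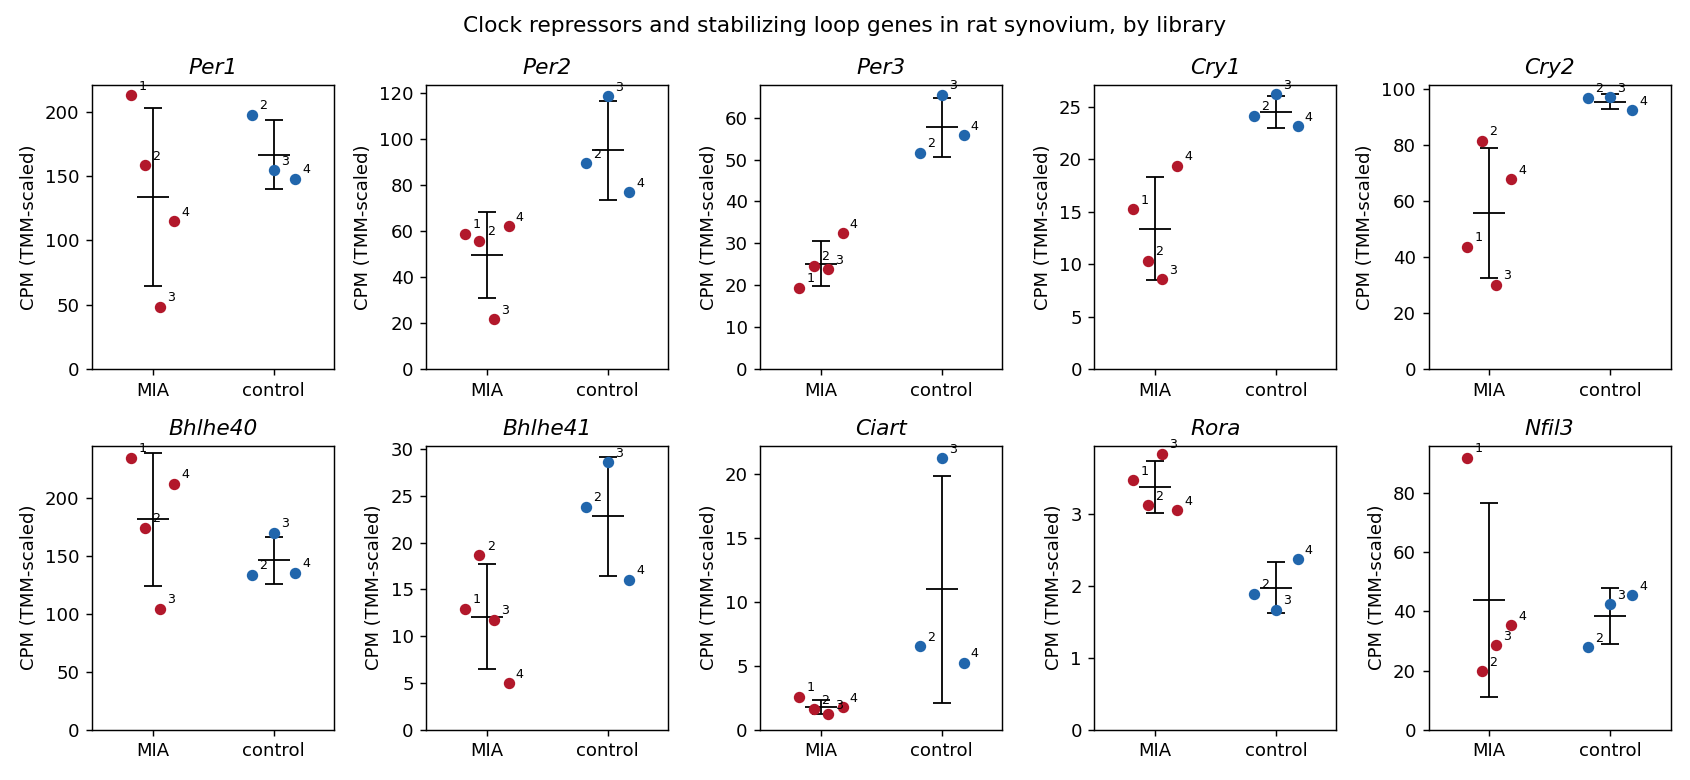
Level of each of the 10 genes in CPM (vertical axes, from 0) in the 4 MIA and 3 control libraries. Points are libraries with their replicate number, and the bars are the mean ± SD. Per2, Per3, Cry1, Cry2 and Ciart lie below all control libraries in every MIA library, and Rora lies above them.

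The Per genes encode the scaffold of the repressor complex, and Per3 showed the clearest change among them. Per3 (ENSRNOG00000018413) stood at 19.4, 24.7, 23.8 and 32.4 CPM in MIA 1 to 4, against 51.7, 65.5 and 55.8 CPM in control 2 to 4. Every MIA library was below every control, and the highest MIA library, MIA 4, was still well under the lowest control. Per3 was 2.30-fold lower (log2 change -1.20 ± 0.20 SE, adjusted p = 0.00292). It was called under all 19 processing alternatives, with log2 changes from -1.34 to -0.66.

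Per2 (ENSRNOG00000020254), whose loss disrupts daily rhythms in mice, had 58.7, 55.7, 21.5 and 62.0 CPM in MIA 1 to 4 and 89.5, 119 and 76.8 CPM in control 2 to 4. The groups did not overlap in CPM, and MIA 3 was far below the other 3 MIA libraries, which lay close together. The log2 change was -0.94 ± 0.35 and did not pass (adjusted p = 0.0599). Without MIA 3 it was -0.70 and passed (adjusted p = 0.0246), and with DESeq2 it passed at 0.0286.

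Per1 (ENSRNOG00000007387), the Per gene that also responds acutely to glucocorticoids and cAMP, had 212, 159, 48.4 and 115 CPM in MIA 1 to 4, against 197, 155 and 148 CPM in control 2 to 4. MIA 1 was the highest of all libraries and MIA 3 the lowest, with a 4.39-fold range within MIA and a 1.34-fold range within control. The log2 change of -0.32 ± 0.43 did not pass (adjusted p = 0.573), and with library totals its sign turned (0.07).

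Both cryptochromes, the direct inhibitors of the CLOCK and BMAL1 pair, had lower levels in MIA in CPM. Cry1 (ENSRNOG00000006622) was at 15.3, 10.3, 8.55 and 19.4 CPM in MIA 1 to 4 and at 24.2, 26.2 and 23.2 CPM in control 2 to 4. All MIA libraries were below the controls, MIA 4 least so and MIA 3 most. The change was 1.83-fold lower (log2 change -0.87 ± 0.28, adjusted p = 0.0377). This call held in 7 of 19 alternatives; it was lost with library totals (-0.44, adjusted p = 0.219), with limma on FPKM (adjusted p = 0.18 and 0.176), with the replicate number as a block (-1.03, adjusted p = 0.0578), with the muscle level as a covariate (-0.60 ± 0.43, adjusted p = 0.35), with the adipocyte level as a covariate (-0.87, adjusted p = 0.0631), and without any one library other than MIA 4 (adjusted p from 0.0568 to 0.113).

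Cry2 (ENSRNOG00000007478) had 43.5, 81.4, 30.03 and 67.7 CPM in MIA 1 to 4, against 96.8, 96.9 and 92.3 CPM in control 2 to 4. The controls were nearly equal, with a 1.05-fold range, while the MIA libraries spanned 2.71-fold and all lay below them. A log2 change of -0.78 ± 0.31 did not pass (adjusted p = 0.0794); it did with DESeq2 (0.0435), without MIA 2 (-1.01, adjusted p = 0.0244) and with the muscle covariate (-1.43 ± 0.39, adjusted p = 0.0439). Taken within each library, the log2 ratio of Cry1 to Cry2 counts was -2.02 ± 0.65 in MIA and -1.96 ± 0.06 in control (SD, n = 4 and 3), a difference of -0.06 (exact two-sided permutation p = 1.0).

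The largest fall of the 10 was in Ciart, which encodes CHRONO, a repressor that binds BMAL1. Ciart (ENSRNOG00000042717) was at 2.57, 1.59, 1.19 and 1.74 CPM in MIA 1 to 4, from 22 to 43 counts per library, and at 6.51, 21.2 and 5.24 CPM in control 2 to 4, from 64 to 241 counts. The groups did not overlap, and control 3 stood far above the other controls, a 4.05-fold range. Ciart was 6.16-fold lower (log2 change -2.62 ± 0.53, adjusted p = 0.00651). Without control 3 the log2 change was -1.73 and still called (adjusted p = 0.0262), and the muscle covariate gave a change of nearly the same size, -2.58 ± 0.89, that missed the threshold (adjusted p = 0.0792). With the other 17 alternatives Ciart was called.

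DEC1 and DEC2 are close paralogs that repress E-box genes. Bhlhe40 (ENSRNOG00000007152), also induced by hypoxia and cytokines, was at 234, 174, 104 and 212 CPM in MIA 1 to 4 and at 134, 170 and 135 CPM in control 2 to 4. In MIA 1, 2 and 4 it was above all controls and in MIA 3 below them, so the groups overlapped (log2 change 0.31 ± 0.29, adjusted p = 0.409). With library totals it was called higher, at 0.74 (adjusted p = 0.0495).

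Bhlhe41 (ENSRNOG00000048961) had 12.9, 18.6, 11.7 and 4.96 CPM in MIA 1 to 4, against 23.8, 28.6 and 16.03 CPM in control 2 to 4. MIA 4 was the lowest and MIA 2 reached into the range of the controls. Its log2 change, -0.92 ± 0.40, did not pass (adjusted p = 0.0987) but did without MIA 2 (-1.20, adjusted p = 0.0388) and with the replicate number as a block (-1.10, adjusted p = 0.0478). The labels give the replicate numbers no meaning, and MIA 1, with no control of its number, adds nothing to the comparison in the block fit. The log2 ratio of Bhlhe40 to Bhlhe41 counts was 4.18, 3.22, 3.15 and 5.41 in MIA 1 to 4 and 2.49, 2.57 and 3.07 in control 2 to 4. Each MIA value was above each control value, and the difference of 1.28 had an exact two-sided permutation p of 0.114 (0.19 adjusted over 5 gene pairs).

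Neither gene of the stabilizing loop passed. Rora (ENSRNOG00000027145), the ROR-element activator, was at 3.47, 3.12, 3.84 and 3.06 CPM in MIA 1 to 4 and at 1.89, 1.67 and 2.37 CPM in control 2 to 4. All MIA libraries were above all controls at low depth, with 49 to 71 counts in MIA and 19 to 29 in control libraries. A log2 change of 0.77 ± 0.31 did not pass (adjusted p = 0.0763). Library totals gave 1.21 (adjusted p = 0.0158), and limma on log2(FPKM + 1) gave 0.73 (adjusted p = 0.0066), both past the threshold.

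Nfil3 (ENSRNOG00000011668), the D-box repressor, which also acts in several lymphoid and myeloid lineages, was at 92.0, 19.7, 28.5 and 35.3 CPM in MIA 1 to 4, against 27.8, 42.4 and 45.5 CPM in control 2 to 4. MIA 1 alone exceeded the controls, MIA 3 and 4 lay within their range and MIA 2 below it. The log2 change of 0.19 ± 0.49 (adjusted p = 0.784) turned without MIA 1, when it was -0.46 (adjusted p = 0.253).

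Opposing partners were compared as log2 ratios of counts (each plus 0.5) within each library, where scaling cancels. The log2 ratio of Rora to Nr1d1 counts was -3.97, -4.26, -3.31 and -4.77 in MIA 1 to 4 and -5.26, -6.29 and -4.78 in control 2 to 4. For Nfil3 to Dbp it was 1.62, -1.39, -0.81 and -0.65 in MIA and -2.50, -2.03 and -1.43 in control. In both pairs each MIA value was above each control value, the closest by a narrow margin. The differences were 1.37 and 1.68, and each had an exact two-sided permutation p of 0.0571 (0.143 adjusted over 5 pairs), where 0.0286 is the smallest that 35 assignments can give. Per1 to Per2 differed by 0.53 between the groups, which overlapped (exact two-sided permutation p = 0.2, adjusted 0.25).

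Levels can be compared between genes in FPKM, which divides by gene length. In MIA the order of mean FPKM was Bhlhe40 (86.0 ± 24.0), Per1 (36.7 ± 17.4), Nfil3 (24.9 ± 17.0), Cry2, Bhlhe41, Per2, Cry1, Per3 (4.45 ± 1.10), Rora (2.28 ± 0.34) and Ciart (1.15 ± 0.31; SD, n = 4). Neighbours in this order overlapped in range down to Per3, and only Per3 over Rora and Rora over Ciart were apart. In control it was Bhlhe40 (51.7 ± 6.51), Per1 (34.9 ± 8.01), Cry2 (20.2 ± 1.697), Nfil3, Bhlhe41, Per2, Per3 (7.48 ± 0.73), Cry1 (7.06 ± 0.61), Ciart (5.27 ± 4.13) and Rora (0.982 ± 0.159; SD, n = 3). There Nfil3 and Bhlhe41, Bhlhe41 and Per2, Per3 and Cry1, and Cry1 and Ciart overlapped, and the other neighbours were apart. Ciart and Rora, the 2 least abundant genes, stood in opposite order in the groups.

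The MIA libraries differed from each other in a way that ran through several of the genes. MIA 3 was the lowest MIA library for 6 of the 10 (Per1, Per2, Cry1, Cry2, Bhlhe40 and Ciart), and MIA 1 the highest for 4 (Per1, Bhlhe40, Ciart and Nfil3). Among controls, control 3 was the highest for 7 of the 10 and control 4 the lowest for 6. MIA 3 also held the most neutrophil transcripts, a summed 557 CPM over 3 genes, against 20.6 to 49.3 CPM in the other MIA and 8.82 to 10.8 CPM in control libraries. It also held the most T cell transcripts, 41.3 CPM over 5 genes, with the other MIA libraries between 5.69 and 11.2 CPM and the controls between 0.840 and 1.47 CPM. Its muscle level was also the highest of the MIA libraries. The part of these transcripts in the values of MIA 3 was not tested.

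**Figure D2:**
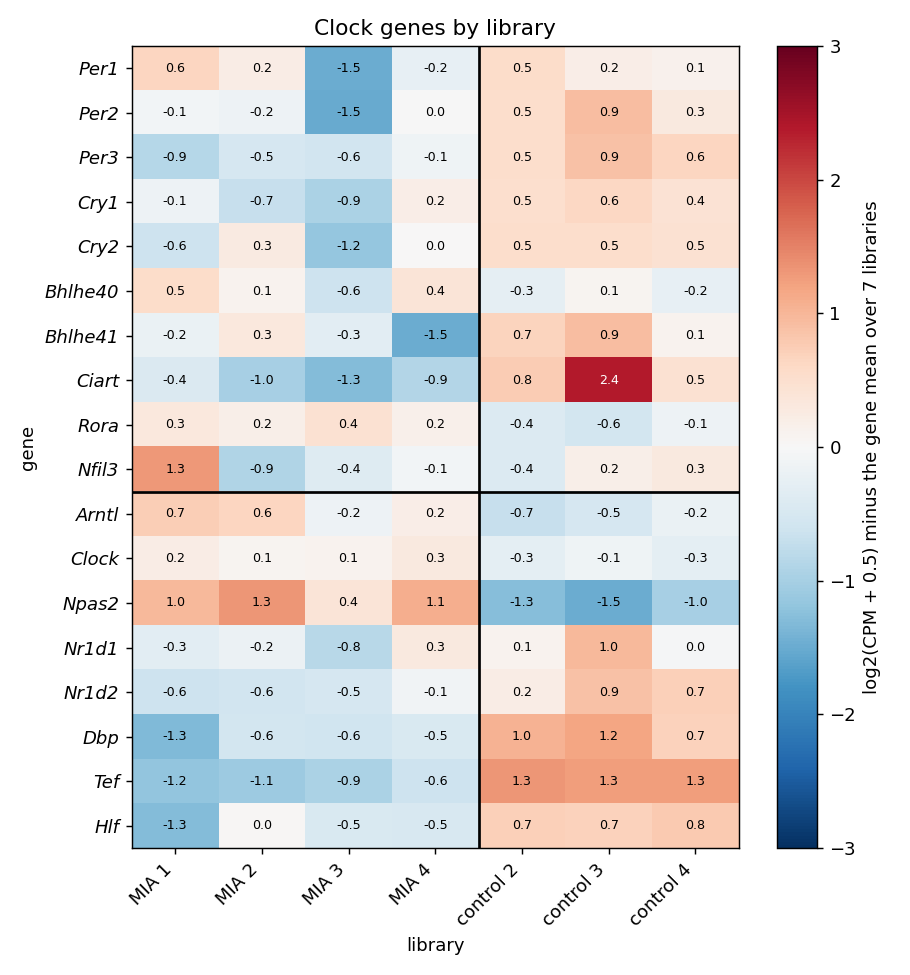
Rows are the 10 genes (above the line) and 8 further clock genes (below it), and columns are the 4 MIA and 3 control libraries. Each cell is log2(CPM + 0.5) minus the mean of that gene over the 7 libraries; red is above and blue below that mean, as in control 3 for Ciart and in MIA 3 for Per1 and Per2.

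The rest of the clock gives the setting of these changes. A list of 29 further clock genes was searched, 28 were in the table and 26 were tested; 5 were higher and 11 lower in MIA, where 21.3% of all genes were higher and 19.6% lower. Their median log2 change was -0.46. The list was drawn up with earlier results of these data known. The activators were higher. Npas2, which can take the place of CLOCK, was at 34.0, 43.4, 22.5 and 36.9 CPM in MIA 1 to 4, against 6.72, 5.72 and 8.34 CPM in control 2 to 4. All MIA libraries were far above the controls (4.93-fold higher, log2 change 2.30 ± 0.27, adjusted p = 0.00114). Arntl, at 29.3 ± 8.01 CPM in MIA (SD, n = 4) and 15.97 ± 2.85 CPM in control (SD, n = 3), was 1.84-fold higher (0.88 ± 0.25, adjusted p = 0.0257), and Clock 1.33-fold higher (0.42 ± 0.14, adjusted p = 0.0386). Arntl2, a paralog of Arntl, differed by 1.29 ± 0.46 on the log2 scale without passing (adjusted p = 0.0545). Npas2 was called under all 19 alternatives, Arntl under 14 and Clock under 9.

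The PAR bZIP output factors, which are targets of the clock through E-boxes, were all lower. Tef was at 52.2, 55.7, 61.5 and 77.3 CPM in MIA 1 to 4 and at 301, 285 and 286 CPM in control 2 to 4, with no overlap (4.71-fold lower, log2 change -2.24 ± 0.19, adjusted p = 0.000767). Dbp, at 46.6 ± 11.4 CPM in MIA and 151 ± 26.1 CPM in control (SD, n = 4 and 3), was 3.24-fold lower (-1.69 ± 0.24, adjusted p = 0.00189). Hlf, at 1.01 ± 0.53 and 2.98 ± 0.11 CPM in MIA and control, was 2.94-fold lower (-1.56 ± 0.48, adjusted p = 0.0325). Its counts were low, 6 to 26 in MIA and 33 to 42 in control libraries. Dbp and Tef were called under all 19 alternatives and Hlf under 10. Of the REV-ERB genes, Nr1d2 was 2.11-fold lower (-1.08 ± 0.22, adjusted p = 0.0063), while Nr1d1 (-0.62 ± 0.32, adjusted p = 0.154) did not pass. Rorb was not tested, with at most 0.176 CPM in any library.

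Of 10 tested genes that act on the PER and CRY proteins, 4 fell and 0 rose. Over all genes 19.6% were called lower and 21.3% higher. In either direction the share called here was near the 40.9% over all genes. Among those that fell were Usp2, a deubiquitinase rather than a kinase or ligase, 10.1-fold (-3.34 ± 0.23, adjusted p = 0.000527), and, by less, the ligase subunit Btrc (-0.63 ± 0.14) and the casein kinase 2 subunit Csnk2b (-0.45 ± 0.14, adjusted p = 0.0374). The Csnk2b call held in 6 of 19 alternatives, and with library totals its change was -0.00037 (adjusted p = 0.999). Btrc was called in 15, and was not with library totals (-0.19, adjusted p = 0.278). At an unadjusted p under 0.05, and by DESeq2 and limma-voom, 0 of the 10 were higher. Usp2 was at 13.7, 9.25, 15.1 and 13.3 CPM in MIA 1 to 4, against 100.1, 161 and 129 CPM in control 2 to 4, and it was called under all 19 alternatives. The casein kinase 1 genes Csnk1d (-0.25 ± 0.18) and Csnk1e (-0.29 ± 0.14) did not pass, and both turned positive with library totals. Csnk2a1 (-0.61), Fbxw11 (-0.32), Fbxl21 (0.24) and Gsk3b (0.57) did not pass either. Among the cofactors and clock-controlled genes, Timeless (1.55 ± 0.41) and the splicing factor gene Sfpq (0.60 ± 0.18) rose. Nampt, the rate-limiting enzyme of NAD salvage (-0.96 ± 0.21), Noct (-1.22 ± 0.37) and Ppargc1a (-2.05 ± 0.71, adjusted p = 0.0491) fell, while Nono (0.43) and Wee1 (-0.48) did not pass. Of 19 alternatives, Noct was called in 8, Ppargc1a in 9, Sfpq in 11, Nampt in 15 and Timeless in 16, with highest adjusted p of 0.168, 0.524, 0.122, 0.11 and 0.156 in that order.

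**Figure D3:**
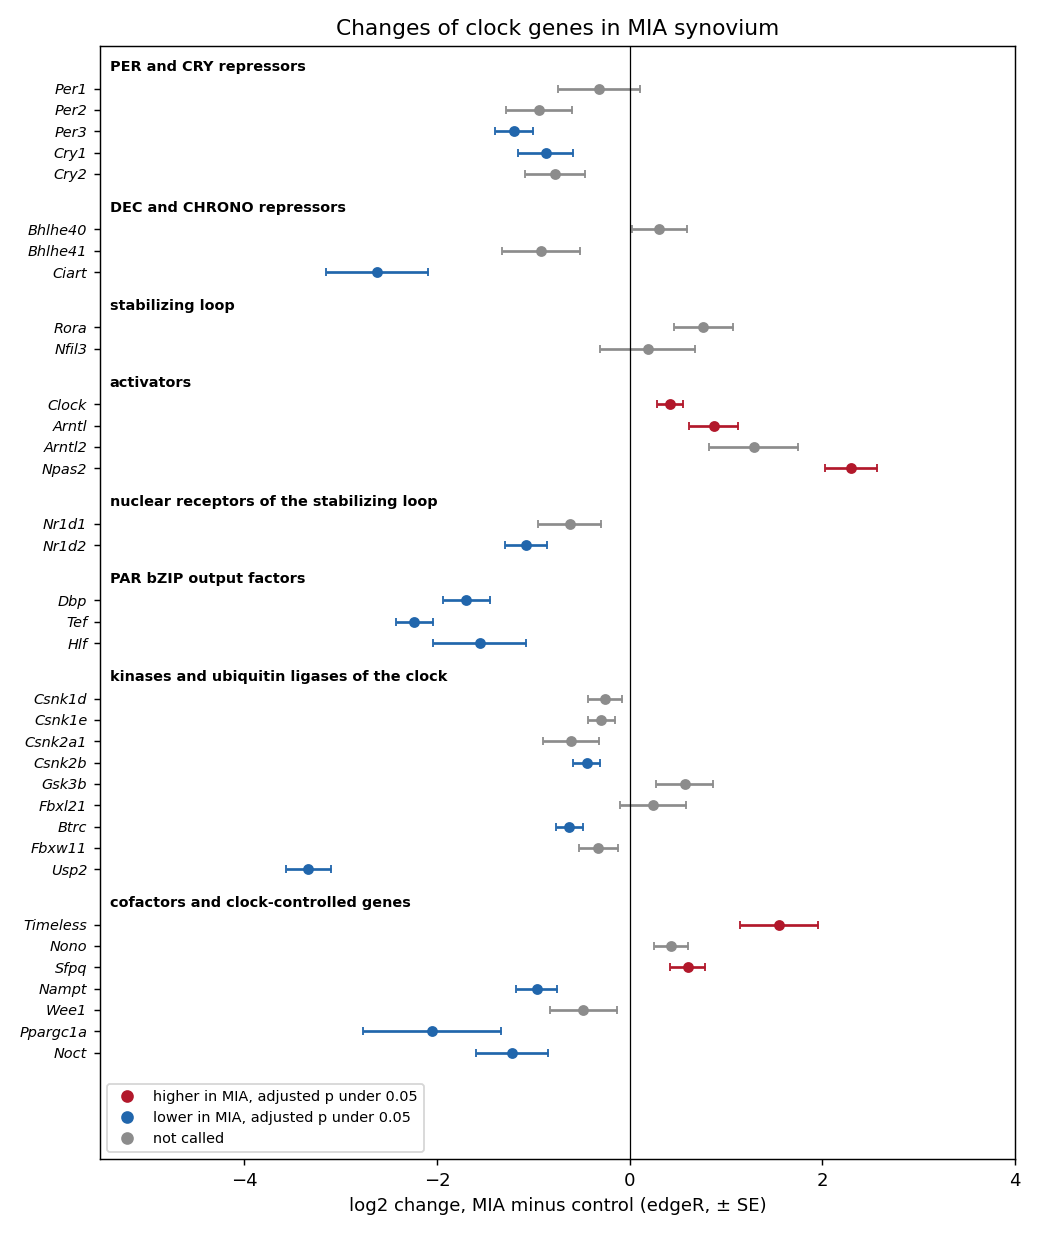
Log2 change, MIA minus control, with its SE for the 10 genes (first 3 blocks) and the further clock genes named in the text. Red marks genes called higher, blue genes called lower and grey genes not called; Ciart at -2.62 is the lowest of the 10 genes and Usp2 at -3.34 the lowest of all.

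The counts of further clock genes moved with single libraries and with scaling. With library totals 8 were higher and 4 lower, the median change of all genes moved to 0.51, against 0.07, and 78.0% of all calls were higher, against 52.1%. On that scale the changes of the 10 genes relative to the median of all genes were -2.70 for Ciart, -1.26 for Per3, -1.03 for Per2, -1.01 for Bhlhe41, -0.95 for Cry1, -0.86 for Cry2, -0.44 for Per1, 0.097 for Nfil3, 0.23 for Bhlhe40 and 0.70 for Rora. The count of further clock genes called higher was 2 without MIA 1, 3 without MIA 4, 2 without control 2, 1 without control 3 and 2 without control 4, against 5 with all libraries. The count called lower was 7 without MIA 4, 6 without control 3 and 6 without control 4, against 11. With the muscle level as a covariate 1 further clock gene was higher and 5 were lower. Among the 10 genes, Per3 and Cry2 were called lower with that covariate, where 1346 of 14054 genes were called higher and 1077 lower. The muscle level separated the groups, so these calls do not show the part of muscle.

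**Figure D4:**
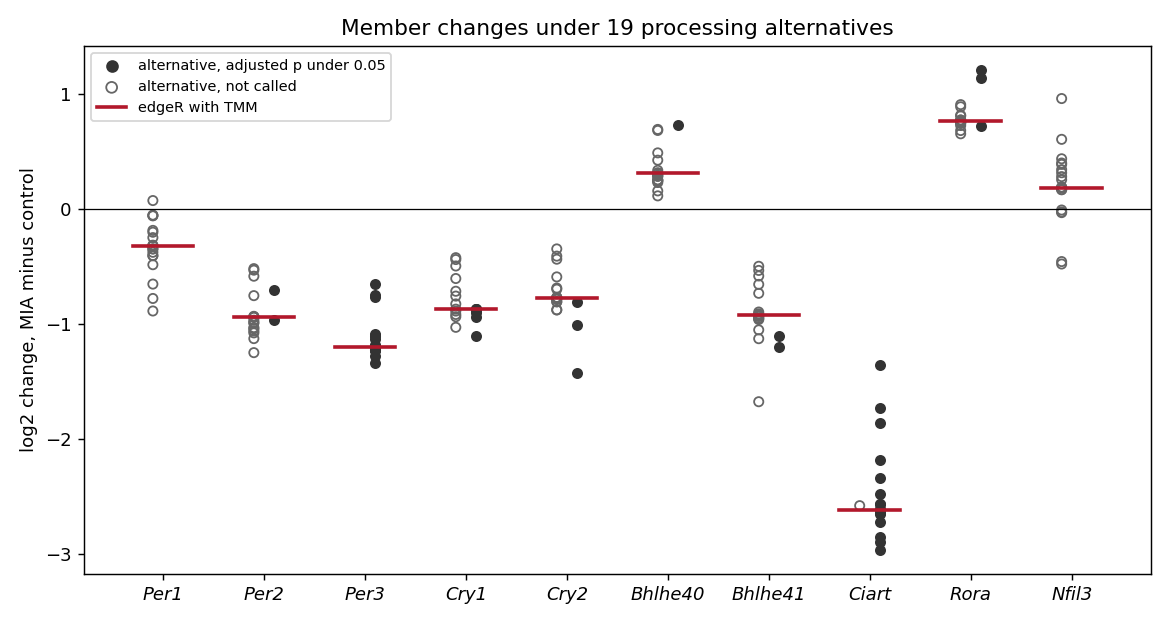
Log2 change, MIA minus control, of each of the 10 genes under 19 alternatives in processing. Red lines are the edgeR values with TMM factors, filled points alternatives with an adjusted p under 0.05 and open points those without. All points for Per3 are filled, and those of Nfil3 lie on both sides of 0.

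The repressors were also set against Arntl within each library, in FPKM, a choice made after the values were seen and given without a test. The Per2 to Arntl ratio was 0.817, 0.823, 0.558 and 1.25 in MIA 1 to 4 and 3.42, 3.96 and 2.07 in control 2 to 4. For Per3 to Arntl the values were 0.242, 0.326, 0.551 and 0.583 in MIA, against 1.77, 1.96 and 1.35 in control. Per3 was below Arntl in all MIA libraries and above it in all control libraries. The same held for Cry1, at 0.302 to 0.772 in MIA and 1.24 to 1.83 in control. Ciart was at 0.0784 to 0.119 of Arntl in MIA and at 0.470 to 2.36 in control. Per1 was above Arntl in every library, at 1.79 to 4.22 times in MIA and 5.69 to 10.8 times in control. Cry2 was at 0.882 to 1.98 times in MIA and 3.63 to 5.39 times in control. All 6 ratios were lower in every MIA library than in every control library. That was so for 43.6% of all tested genes, and Arntl, the shared denominator, was itself higher in MIA.

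**Figure D5:**
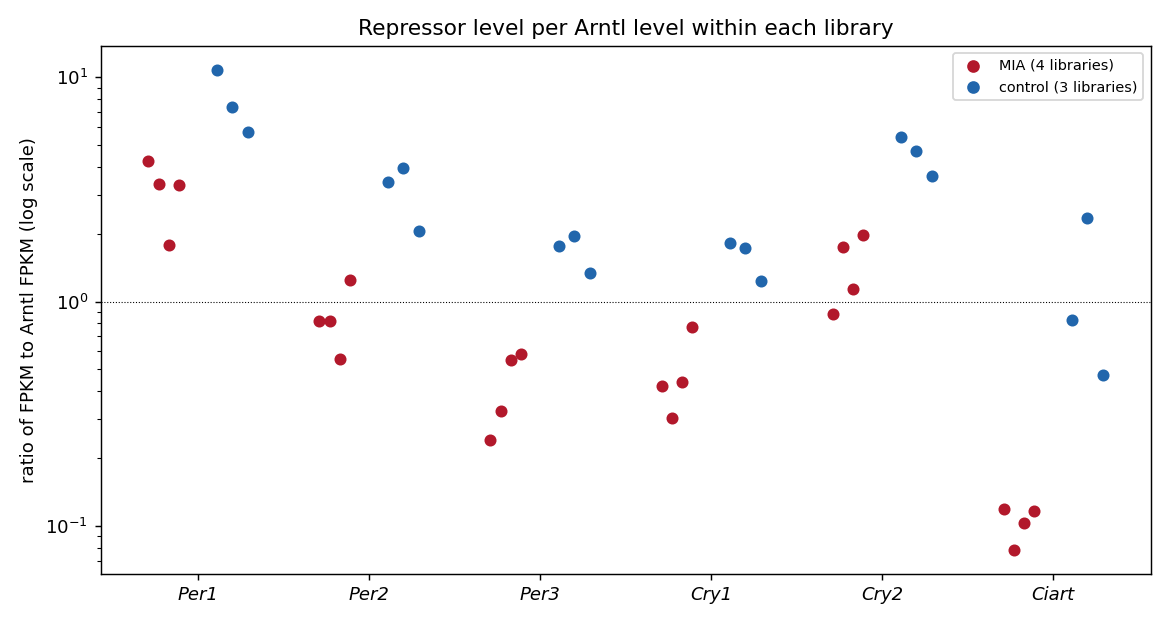
Ratio of the FPKM of 6 repressor genes to that of Arntl (log axis) in the 4 MIA and the 3 control libraries; the dotted line marks equal levels. For each gene the MIA points lie below the control points, and for Per3 and Cry1 the groups fall on opposite sides of the line.

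For each of the 10 genes the closest pattern over the 7 libraries was sought among 12745 other tested genes, by the root mean square (RMS) difference of log2 CPM after each gene's mean was subtracted. The closest were Gtpbp8 for Per3 (0.114), Acrbp for Per2 (0.154), Skida1 for Per1 (0.226), Cmss1 for Cry1 (0.126) and Lamb2 for Cry2 (0.123). For Bhlhe40 it was Spred2 (0.0957), for Bhlhe41 Them6 (0.257), for Ciart Dnajb4 (0.404), for Rora Zdhhc6 (0.0930) and for Nfil3 Uchl1 (0.226). Ciart thus had the largest of these differences, and Bhlhe41 was little above Per1 and Nfil3. The difference is not scaled to the spread of each gene, so a gene that varies more can stand further from all others. A clock gene was the nearest for 0 of the 10. The 10 genes and the 26 further clock genes tested are only a small part of those ranked, so this count says little. The nearest clock gene to Per3 was Nr1d2, at rank 13 with an RMS difference of 0.155. Per2 and Cry1 were each other's nearest clock gene at 0.329, at ranks 32 and 410, and for Ciart it was Tef at rank 122. These distances describe 7 libraries, in which many genes follow the 2 groups.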

How the data were processed

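Synovium of 4 MIA and 3 untreated control rats was profiled by bulk RNA-seq, with 1 library per rat, per the labels. The authors deposited raw read counts per gene and FPKM in 1 table. The FPKM equal the count over gene length and column total for 18593 of 18593 genes checked (tolerance 1e-09), so the deposited FPKM carry no composition scaling. Per the submitters' processing notes, the genome build was Rnor_6.0 and the tools were HISAT2, HTSeq (version 0.11.2) and DESeq2 (version 1.26.0), with no role stated. The annotation and strand setting of the counting were not given in the sources used here. If strand was not used, reads of overlapping antisense genes cannot be told apart. Total counts ran from 13870822 to 16261089.

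Counts were fitted with edgeR 4.0.16 (R 4.3.3; TMM factors, filterByExpr, quasi-likelihood F test, MIA against control with no covariate). P-values were Benjamini-Hochberg adjusted over 14054 genes, called under 0.05, and an SE is the absolute log2 change over the square root of F. The common biological coefficient of variation was 36.7%. DESeq2 1.42.0, limma 3.58.1 (voom, and log2 FPKM with a pseudocount of 1 or 0.1) and other factors, filters, covariates, the replicate block and leaving out each library were alternatives, 19 in all. Gene pairs had exact two-sided permutation tests. Named are the 10 genes, the listed clock genes in the table, except a few items that are not reported here, and the nearest gene to each of the 10 with a proper symbol. The genes and lists were chosen with earlier results of these data known. P-values set the difference between the groups against the spread between these rats. In edgeR that spread is estimated partly across genes.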

Additional observations from a re-analysis of the deposited data

Results flagged for a closer look

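In 41 groups of 4 MIA values (36 clock genes in CPM and 5 pair ratios), 3 had 1 library far from the other 3 by Dixon's test, which chance gives in about 1 in 20 groups. The Per2 level of MIA 3 was 21.5 CPM, while MIA 1, 2 and 4 had 55.7 to 62.0 CPM. Csnk2a1, a casein kinase 2 subunit gene, was at 24.4 CPM in MIA 2, against 45.1 to 48.1 CPM in the others. Ppargc1a, a coactivator of mitochondrial genes, was at 3.73 CPM in MIA 3, against 0.574 to 0.778 CPM in the others.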

How the results depend on the processing

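Of the 10 genes, 3 were lower and 0 higher. With library totals 2 were higher, with limma on log2(FPKM + 1) and log2(FPKM + 0.1) 1 each, and DESeq2 called 5 lower. Of the 26 further clock genes, 5 higher and 11 lower became 8 and 4 with library totals, 8 and 5 with each FPKM fit, and 1 and 5 with the muscle covariate. The adipocyte covariate gave 3 higher, and leaving out 1 library gave 1 to 5 higher and 6 to 10 lower. Of all genes, 2998 higher and 2753 lower became 5258 and 1480 with library totals, 4959 and 1608 with log2(FPKM + 1), 5140 and 1558 with log2(FPKM + 0.1), and 1346 and 1077 with the muscle covariate. Leaving out 1 library gave 1642 to 2937 higher and 1757 to 2787 lower.

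Per1 changed sign with library totals (0.074). Nfil3 did so with limma-voom (-0.031) and the adipocyte covariate (-0.025), and ran from -0.46 to 0.44 as each library was left out. With library totals, log2(FPKM + 1) and log2(FPKM + 0.1), Csnk1d was at 0.18, 0.17 and 0.18, Csnk1e at 0.14, 0.13 and 0.14, and Fbxw11 at 0.12, 0.11 and 0.11. With the muscle covariate Csnk2a1 was at 0.064 and Fbxl21 at -0.16. The Cry1 to Cry2 difference was 0.19 by medians and ran from -0.24 to 0.25 with 1 library left out. The causes were not tested.

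The replicate numbers 2 to 4 are shared, but the labels give them no meaning and the same-number correlations were 0.245, 0.0967 and 0.0425, with 1 of 3 libraries closest to its own number. MIA 1 has no control of its number, so it adds nothing to the comparison of the groups in the block fit. With the replicate block 0 of the 10 genes were higher and 3 lower (Bhlhe41 was called and Cry1 was not), 2 and 8 of the further clock genes, and 2301 and 2254 of all genes; Nfil3 was at -0.48. In limits, Rora and Ciart rest on few counts, as do Hlf, Arntl2, Fbxl21 and Ppargc1a among the further clock genes. The 7 libraries are few, and with no hour of collection given a rhythm cannot be read.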
